A study of Mus musculus with 6 samples.

Results

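*Dppa3*, *Dppa2*, *Dppa4* and *Dppa5a* are 4 of the 37620 genes counted in polyA RNA of mouse embryonic stem cells (ESCs). Their rows were found by matching Ensembl identifiers to symbols, and all 4 were among the 16023 genes with enough counts to be tested. *Dppa3* was selected on its large fall in the mutant libraries of this same comparison, so its values below are a description and carry no p-value. *Dppa2* and *Dppa4* were chosen as known activators of genes of the 2-cell embryo, and *Dppa5a* as a gene of the same naming group.

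The libraries came from E14 cells, an ESC line of strain 129/Ola, in 2 groups of 3. One group was wild-type, and the other carried the *Ube2d3*-S138A mutation, in which a serine of the ubiquitin-conjugating enzyme UBE2D3 is replaced with alanine. All cells grew in 15% serum, and 500 ng of RNA went into each strand-keeping library. The mutation was introduced with CRISPR/Cas9 and cells were picked as clones. The study's text describes its functional ESC work as done on 1 mutant clone, without naming these libraries, so genotype and clone cannot be told apart. The labels do not say whether the 3 libraries of a genotype were separate cultures, and p-values then measure the spread between these libraries, which may be technical. The mutant columns do not name a labelled sample and are called S138A A, B and C, in the order of the last digit of their names.

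The Dppa (developmental pluripotency associated) genes are named for their expression in pluripotent cells, and they do not form a single protein family. DPPA3, also called STELLA or PGC7, is a maternal and germ cell protein that binds UHRF1, the factor that brings the maintenance methyltransferase DNMT1 to replicating DNA, and it protects the maternal genome of the zygote from demethylation. DPPA2 and DPPA4 share a SAP domain, act as a pair on chromatin, keep a set of developmental promoters in a bivalent state and activate *Dux* and other genes of the 2-cell embryo. DPPA5A, also called ESG1, is an RNA-binding protein with a KH domain that is abundant in ESCs and early germ cells.

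In GENCODE M21 (build GRCm38), matched by identifier, *Dppa3* (ENSMUSG00000046323) lies on the plus strand at chr6:122626410-122630272. *Dppa4* (ENSMUSG00000058550), at chr16:48283733-48294237, and *Dppa2* (ENSMUSG00000072419), at chr16:48303908-48319723, follow each other on the plus strand with 9.7 kb between them. *Dppa5a* (ENSMUSG00000060461) lies on the minus strand at chr9:78367052-78368177. The counts themselves were made on mm9, and the coordinates are given only to place the genes.

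Each of the 4 genes has processed copies elsewhere in the genome that could take or give reads. Of the 50-base stretches of annotated exon sequence, 16.5% in *Dppa3*, 29.1% in *Dppa2*, 35.1% in *Dppa4* and 38.6% in *Dppa5a* also occurred in another annotated gene. A window of 30 coding bases is shown for each gene and its counted copy that shared most of these stretches, because it shows how few bases separate the reads of gene and copy. Windows are counted from the first coding base, are read 5′ to 3′ on the coding strand from the GENCODE M21 transcripts, and have the bases that differ in capitals.
*Dppa3*, coding bases 148 to 177: gtcaagcggtccgcacgCCggcgcagtctA
*Dppa3-ps*: gtcaagcggtccgcacgTAggcgcagtctC
*Dppa2*, coding bases 92 to 121: aggaggaggaggagccaaACacagactacG
*Gm9788*: aggaggaggaggagccaaTTacagactacC
*Dppa4*, coding bases 20 to 49: agaagtggagcGcagaagagccgaaggaaG
*Gm14058*: agaagtggagcAcagaagagccgaaggaaA
*Dppa5a*, coding bases 268 to 297: gctgagaggtaccAcctgcGccagcaaaAA
*Gm15310*: gctgagaggtaccGcctgcAccagcaaaGT
The windows were picked for their differences. Over the whole aligned length the copies were closer, with 8 mismatches in 451 bases for *Dppa3-ps* (chromosome X), 6 in 906 for *Gm9788* (chromosome 19), 8 in 735 for *Gm14058* (chromosome 2) and 11 in 357 for *Gm15310* (chromosome 16).

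Few reads were counted on these copies. The 2 counted genes that share such stretches with *Dppa3* held 0 reads in 5 libraries and 2 reads in S138A B. Those of *Dppa2* (3 copies) held 50 to 125 reads per library and those of *Dppa4* (2 copies) held 52 to 84, at most 2.79% and 1.89% of the reads of their gene. The 6 copies of *Dppa5a* held 4 to 70 reads, at most 0.108%. *Pigp*, a protein-coding gene that shares 12.3% of the *Dppa5a* stretches, was left out of that sum. It held 237 to 385 reads per library, which was 0.473% of those of *Dppa5a* with all 6 libraries pooled. How the counting treated a read that fits both a gene and a copy is not given in the sources used here. Copies that were not among the genes counted are not covered by these shares. They include *Gm8023* and *Gm9298*, which share 18.4% and 5.6% of the *Dppa2* stretches, and *Gm47576* (2.1% of those of *Dppa3*). *Dppa5b* and *Dppa5c*, which each share 10.0% of the *Dppa5a* stretches, are also among them.

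The libraries held 33227593 to 37169770 counts. In each genotype 1 library, wild-type 3 or S138A C, set itself off from the rest. Across genes, the deviations of S138A C from its group mean correlated with those of wild-type 3 (r = 0.753) and inversely with those of wild-type 1 (r = -0.614) and wild-type 2 (r = -0.598). Genes are not independent replicates, and no p-value is given for these correlations. This difference runs through several of the results below. ESC markers (*Pou5f1*, *Sox2*, *Nanog* and *Zfp42*) summed to 3380 to 3449 CPM (counts scaled by library size with TMM factors) in wild-type and 2857 to 3336 CPM in S138A libraries. *Ube2d3* RNA did not pass the test (log2 fold change -0.06, adjusted p = 0.945 with edgeR's quasi-likelihood test), and the mutated base cannot be read from counts per gene.

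*Dppa3* was lower in every S138A library than in every wild-type library. The counts were 645, 578 and 1132 in wild-type 1, 2 and 3, and 97, 85 and 156 in S138A A, B and C. On the CPM scale these were 19.5, 18.3 and 29.7 against 2.81, 2.31 and 4.21. The groups did not overlap, and the highest S138A value (4.21) lay far below the lowest wild-type value (18.3). The mean level was 22.5 ± 6.25 CPM (SD, n = 3) in wild-type and 3.11 ± 0.982 CPM (SD, n = 3) in S138A cells, a ratio of 7.24. The fitted log2 fold change was -2.85 (SE 0.304). No interval is given, and neither this SE nor those of *Dppa3* below allow for the selection of the gene. Since the gene was selected for this fall, the background share of genes whose groups did not overlap with S138A lower (10.9% of those tested) is given only for reference. Counting error was small beside the difference, as the lowest count, 85, has an exact 95% Poisson interval of 67.9 to 105, which covers counting error only.

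Of the 16023 genes, 1 had a larger fitted fall than *Dppa3*. It was *H19*, an imprinted noncoding RNA, named here after its values were seen, at 32.7 ± 31.0 CPM in wild-type and 1.90 ± 0.596 CPM in S138A cells (SD, n = 3 each). The spread of *H19* between wild-type libraries was almost as large as its mean, which was not so for *Dppa3*. In bulk RNA, fewer cells that express *Dppa3* and less *Dppa3* RNA per cell cannot be told apart.

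Within each genotype *Dppa3* was highest in the library that stood apart. Wild-type 3 held 1.57 times the mean of wild-type 1 and 2, and S138A C held 1.64 times the mean of S138A A and B. With genotype in the model, the log2 difference of these 2 libraries over the other 4 was 0.68 (SE 0.106). For libraries set side by side by number, the ratio of wild-type to S138A was 6.95, 7.91 and 7.05. Without wild-type 3 and S138A C the fitted log2 fold change was -2.89 (SE 0.121), and the fit with the replicate block gave -2.86 (SE 0.111).

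**Figure D1:**
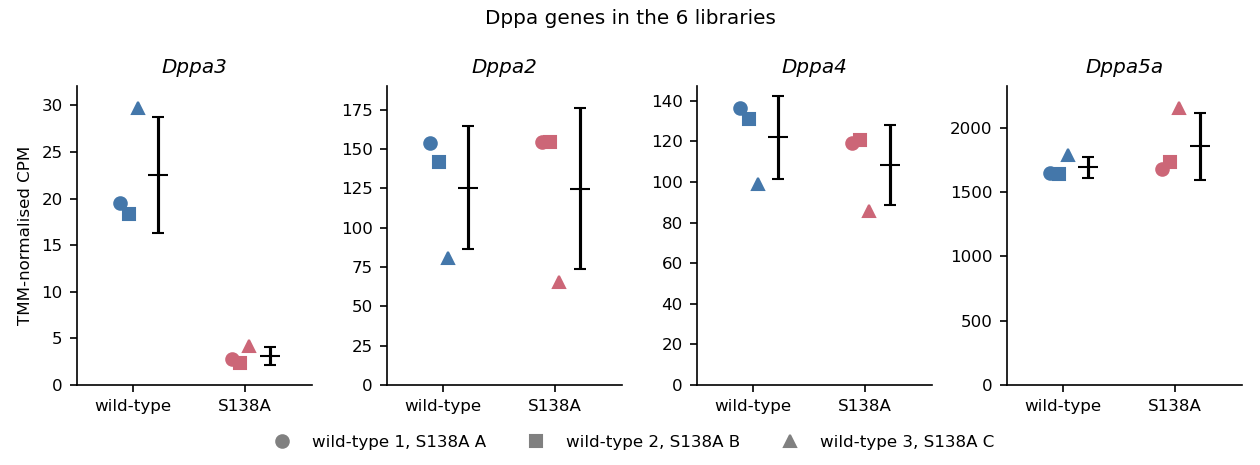
TMM-normalised CPM (vertical axis, starting at 0) of the 4 Dppa genes in the 3 wild-type (blue) and 3 S138A (red) libraries. Each point is a library, the marker shape gives the number taken from the column name, and black bars are the mean ± SD of 3 libraries. *Dppa3* is between 18.3 and 29.7 CPM in wild-type and between 2.31 and 4.21 CPM in S138A libraries, whereas the groups overlap for the other genes and the triangles (wild-type 3 and S138A C) are lowest for *Dppa2* and *Dppa4*.

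*Dppa2*, the SAP domain partner of DPPA4, had nearly equal means in both genotypes. It stood at 154, 142 and 80.6 CPM in wild-type 1, 2 and 3, and at 154, 154 and 65.6 CPM in S138A A, B and C. The groups overlapped throughout, and the spread lay between libraries of the same genotype. The mean was 125 ± 39.2 CPM in wild-type and 125 ± 51.1 CPM in S138A cells (SD, n = 3 each). The log2 fold change was -0.01 (95% interval -0.89 to 0.88, adjusted p = 0.996 in edgeR's quasi-likelihood test), so a difference of almost 1 log2 unit either way lies within the interval. With the replicate block the interval narrowed to -0.27 to 0.16 (adjusted p = 0.697 in edgeR).

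*Dppa4* followed *Dppa2* in which libraries were low. It stood at 136, 131 and 98.9 CPM in wild-type 1, 2 and 3, and at 119, 121 and 85.5 CPM in S138A A, B and C. Each S138A library was lower than the wild-type library of its number, with ratios of wild-type to S138A of 1.14, 1.09 and 1.16, but the groups overlapped. The log2 fold change was -0.17 (SE 0.181, 95% interval -0.60 to 0.26, adjusted p = 0.717 in edgeR's quasi-likelihood test). With the replicate block it was -0.17 (SE 0.0656, 95% interval -0.33 to -0.02, adjusted p = 0.101 in edgeR), which did not pass the threshold over all genes. When a term set wild-type 3 and S138A C against the rest, it reached an adjusted p of 0.04999 in edgeR, at the threshold itself.

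*Dppa5a*, the KH domain gene, was the most abundant of the 4 and was highest in S138A C. It stood at 1649, 1644 and 1789 CPM in wild-type 1, 2 and 3, and at 1678, 1737 and 2155 CPM in S138A A, B and C. The groups overlapped, since S138A A and B lay below wild-type 3. The log2 fold change was 0.13 (SE 0.123, 95% interval -0.16 to 0.42, adjusted p = 0.675 in edgeR's quasi-likelihood test), and 0.12 with the replicate block (adjusted p = 0.236 in edgeR). The intervals of *Dppa4* and *Dppa5a* leave room for differences smaller than the fall of *Dppa3* in either direction. Among other genes of this name, *Dppa1* held 0 to 2 counts per library and was not tested.

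The 4 genes differed in how they behaved in the libraries that stood apart. *Dppa2* was 0.546 times as high in wild-type 3 as in the mean of wild-type 1 and 2, and 0.426 times as high in S138A C as in the mean of S138A A and B. The corresponding ratios were 0.740 and 0.714 for *Dppa4*, and 1.09 and 1.26 for *Dppa5a*. Thus *Dppa2* and *Dppa4* were low where *Dppa3* and *Dppa5a* were high, in both genotypes. As log2 differences of these 2 libraries over the other 4, with genotype in the model, the values were -1.05 (SE 0.0918) for *Dppa2*, -0.46 (SE 0.0609) for *Dppa4* and 0.23 (SE 0.0644) for *Dppa5a*. The 2 libraries were singled out from these data, so no p-value is given for these differences, and their source was not tested.

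Levels of different genes can be compared only per length, here as CPM per kilobase of merged exons (892 bases for *Dppa3*, 2447 for *Dppa2*, 1662 for *Dppa4* and 619 for *Dppa5a*). On this scale *Dppa5a* was highest, at 2656 to 2891 CPM per kilobase in wild-type and 2711 to 3482 in S138A libraries. *Dppa4* came next, at 59.5 to 82.0 in wild-type and 51.5 to 72.6 in S138A libraries, followed by *Dppa2* at 32.9 to 62.8 and 26.8 to 63.0. *Dppa3* was lowest, at 20.5 to 33.3 CPM per kilobase in wild-type and 2.59 to 4.72 in S138A libraries. The order of neighbours was not equally firm. *Dppa4* and *Dppa2* overlapped across libraries although *Dppa4* was higher within each one, and *Dppa3* in wild-type 3 (33.3) reached the level of *Dppa2* in the same library (32.9).

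The balance of DPPA2 and DPPA4 transcripts was compared because the proteins act together. The ratio of *Dppa2* to *Dppa4* per kilobase was 0.766, 0.734 and 0.554 in wild-type 1, 2 and 3, and 0.879, 0.868 and 0.521 in S138A A, B and C. It was lowest in the library that stood apart in each genotype. The means, 0.685 ± 0.115 and 0.756 ± 0.204 (SD, n = 3 each), did not differ beyond this spread (two-sided exact permutation test, p = 0.6, where 0.1 is the smallest p that 3 against 3 allow). The ratio of *Dppa5a* to *Dppa3* per kilobase, which follows the gene chosen for its fall, was 86.9 to 130 in wild-type and 738 to 1083 in S138A libraries.

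**Figure D2:**
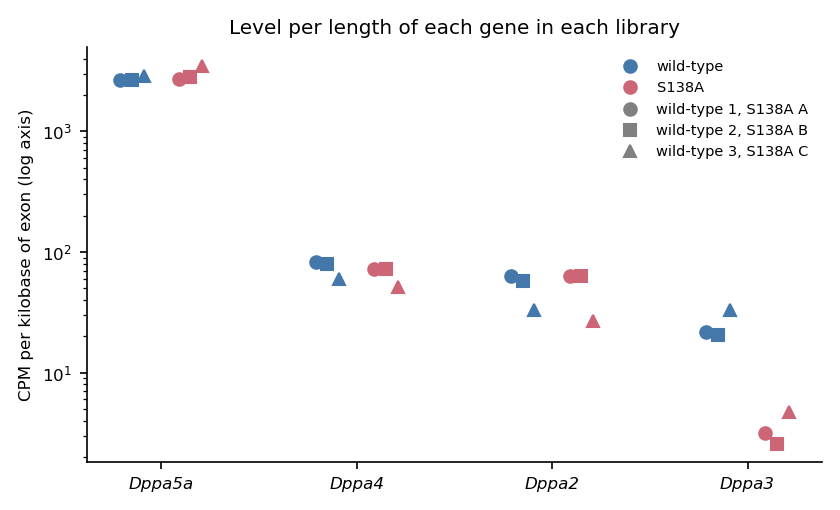
CPM per kilobase of merged exons (log axis) of each Dppa gene in each wild-type (blue) and S138A (red) library, with marker shapes for the number taken from the column name. *Dppa5a* lies far above the others in all 6 libraries, *Dppa4* and *Dppa2* lie between 26.8 and 82.0, and *Dppa3* spans 20.5 to 33.3 in wild-type and 2.59 to 4.72 in S138A libraries.

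The genes that work with these proteins were then described by list. edgeR's quasi-likelihood test on genotype alone called 0 of the 16023 genes (0.0%) at an adjusted p under 0.05, with 2270 at an unadjusted p under 0.05. DESeq2 called 797 genes and limma-voom called 0. With the replicate block, which takes wild-type 1 with S138A A, 2 with B and 3 with C (an order in which A and B could be exchanged on these data), edgeR called 3180 genes, 10.7% of all genes as higher and 9.13% as lower in S138A cells. The counts for the lists below are from the fit with the block, where 27 of the 76 list members tested were called. Without the block, on all 6 libraries, edgeR on genotype alone called 0 of them and DESeq2 called 8. The lists were chosen with earlier results of these data known, so their counts are descriptions. Log2 fold changes of list members are from the fit on genotype alone, also where the adjusted p beside them is from the block. The median log2 fold change of all genes tested was 0.02.

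Of 12 genes of the UHRF1 and DNA methylation list, 1 was higher and 1 lower with the block, shares near the background, and the median log2 fold change was -0.05. *Tet3*, an oxidase of 5-methylcytosine, rose from 20.6, 20.5 and 24.6 CPM in wild-type 1, 2 and 3 to 27.0, 27.9 and 35.9 CPM in S138A A, B and C (log2 fold change 0.46, adjusted p = 0.0137 with the block and 0.27 without it in edgeR). *Dnmt3b*, a de novo methyltransferase, fell from 302, 316 and 189 CPM to 244, 259 and 137 CPM (log2 fold change -0.33, adjusted p = 0.0163 with the block and 0.648 without it in edgeR). The groups overlapped for *Dnmt3b* because wild-type 3 was low, but not for *Tet3*. *Uhrf1*, the DPPA3 partner, is named outside the rule for named genes and after its values were seen. It stood at 423, 456 and 399 CPM in wild-type and 436, 418 and 397 CPM in S138A libraries (log2 fold change -0.03, adjusted p = 0.77 with the block in edgeR). *Usp7*, a deubiquitinase that binds UHRF1, and *Tet1* had log2 fold changes of -0.16 and -0.14 (adjusted p = 0.101 and 0.243 with the block in edgeR).

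The genes of the 2-cell embryo include the targets through which DPPA2 and DPPA4 are best known. Those tested had higher fitted levels in S138A cells, but whether they were called depended on the fit. Of the 18 members listed, 12 were matched by symbol and tested. With the block 11 of the 12 were higher and 0 lower, against 10.7% of all genes higher. Without the block, edgeR on genotype alone called 0 of the 12, against 0.0% of all genes. DESeq2 called 7 of the 12 as higher, against 2.62% of all genes. Without wild-type 3 and S138A C, 12 of 12 were higher, against 15.3% of all genes. The median log2 fold change of the list was 1.35, and the groups did not overlap for 5 of the 12, all with S138A higher (11.3% of all genes did so). Most of these genes sit in families of near-identical copies (*Usp17l*, *Zscan4* and *Tdpoz*), so reads may be split among copies and the value of a single member is uncertain. Members of a family are also not separate observations. The counts above therefore cannot be read as 12 independent genes against the share of all genes.

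*Duxf3*, the gene of the DUX factor that DPPA2 and DPPA4 activate, stood at 1.57, 1.90 and 1.28 CPM in wild-type 1, 2 and 3, and at 3.74, 4.13 and 2.80 CPM in S138A A, B and C (log2 fold change 1.17, adjusted p = 0.00938 with the block and 0.191 without it in edgeR). All 3 S138A libraries exceeded the wild-type ones. *Usp17le*, a deubiquitinase gene of a DUX-responsive cluster, rose from 4.36, 4.97 and 5.50 CPM to 17.0, 17.8 and 9.14 CPM (log2 fold change 1.57, adjusted p = 0.0103 with the block and 0.18 without it in edgeR). *Usp17ld* and *Usp17la* of the same cluster had log2 fold changes of 1.63 and 1.25 (adjusted p = 0.00655 and 0.0275 with the block in edgeR), again with no overlap of the groups. *Zscan4c*, a 2-cell gene outside the rule for named genes that was picked after its values were seen, stood at 20.3, 20.2 and 9.59 CPM in wild-type and at 52.8, 49.9 and 13.8 CPM in S138A libraries. Its groups overlapped, because S138A C lay below wild-type 1 and 2.

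Most 2-cell genes were low in the same libraries as *Dppa2* and *Dppa4*, more evenly so in S138A cells. Of the 12, 8 were lowest in wild-type 3 among wild-type libraries and 12 were lowest in S138A C among S138A libraries. The exceptions in wild-type were *Tdpoz3*, *Usp17la*, *Usp17lb* and *Usp17le*, the last 3 of which were highest in wild-type 3. The median log2 difference of wild-type 3 and S138A C over the other 4 libraries was -1.17 (range -2.78 to -0.19), against -1.05 for *Dppa2* and -0.46 for *Dppa4*, and against 0.00 for the median of all genes. By genotype the values were 1.35 for the median of the list, -0.01 for *Dppa2* and -0.17 for *Dppa4*. In the fit with the block, 11 of the 12 genes of this list were called, and *Dppa2* and *Dppa4* were not. With the term for wild-type 3 and S138A C, 12 of 12 were called. In that fit *Dppa4* was at the threshold (adjusted p = 0.04999 in edgeR) and *Dppa2* was not called. Protein levels of DPPA2 and DPPA4 were not measured in these libraries, and their part in the 2-cell genes was not tested.

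The list of bivalent targets of DPPA2 and DPPA4 held only a pair of genes, too few to represent such promoters. The chromatin state of their promoters was not measured in these libraries. *Syce1*, a gene of the synaptonemal complex, stood at 40.7, 35.9 and 23.4 CPM in wild-type 1, 2 and 3 and at 51.3, 50.7 and 29.7 CPM in S138A A, B and C (log2 fold change 0.40, adjusted p = 0.0172 with the block and 0.566 without it in edgeR). Each S138A library exceeded the wild-type library of its number, although the groups overlapped. *Nkx2-5*, a cardiac homeobox gene, stood at 0.190 to 0.515 CPM in wild-type and 0.404 to 1.01 CPM in S138A libraries and was not called (adjusted p = 0.249 with the block in edgeR). The fitted log2 difference of wild-type 3 and S138A C over the other 4 libraries was -0.75 for *Syce1* and -0.44 for *Nkx2-5*.

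**Figure D3:**
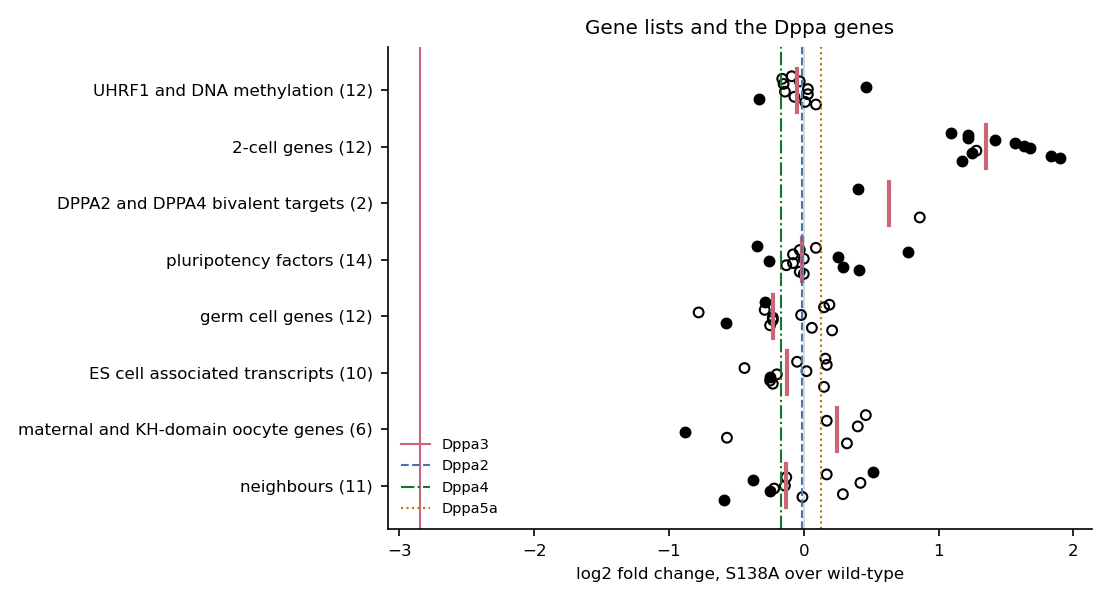
Log2 fold change (S138A over wild-type, horizontal axis) of the tested members of each gene list, with the number tested in brackets. Filled points were called with the replicate block, open points were not, short red bars are list medians and vertical lines are the 4 Dppa genes. The 2-cell genes lie between 1.09 and 1.90, the other list members lie between -0.88 and 0.86, and the line of *Dppa3* at -2.85 lies beyond all of them.

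**Figure D4:**
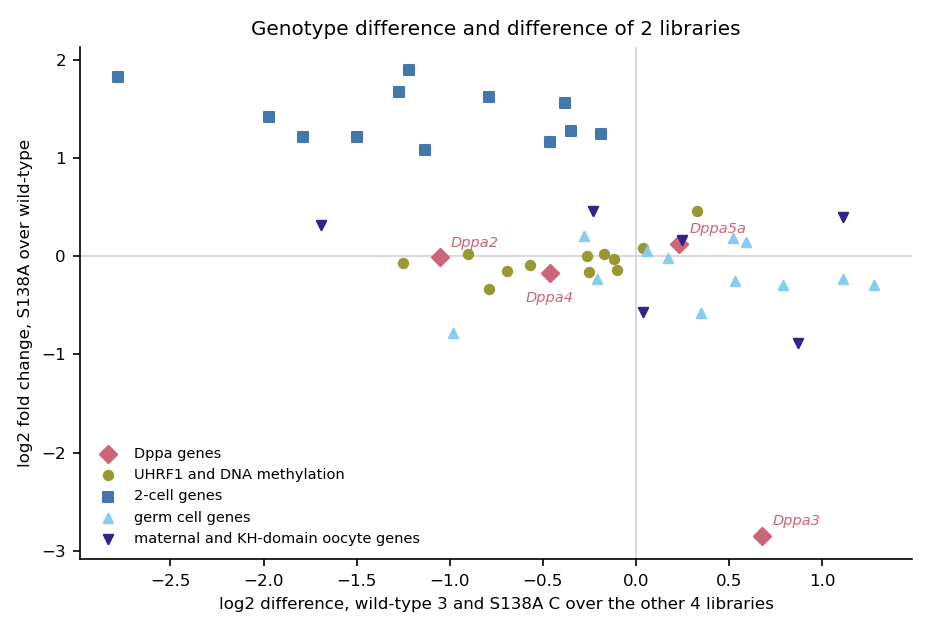
Log2 fold change between genotypes (vertical axis) against the log2 difference of wild-type 3 and S138A C over the other 4 libraries (horizontal axis), for the Dppa genes (diamonds) and 4 gene lists. *Dppa2* (-1.05) and *Dppa4* (-0.46) lie on the left with the 2-cell genes but near 0 on the vertical axis, and *Dppa3* lies on the right (0.68) at the bottom (-2.85).

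The pluripotency factors, with which *Dppa3* is often listed, went in both directions. Of 14 tested, 4 were higher and 2 lower with the block (against 10.7% and 9.13% of all genes), and the median log2 fold change was -0.01. *Tbx3*, a T-box factor of naive cells, rose from 145.7, 138.3 and 132.1 CPM in wild-type 1, 2 and 3 to 266, 254 and 187 CPM in S138A A, B and C (log2 fold change 0.77, adjusted p = 0.00592 with the block and 0.187 without it in edgeR). *Zfp42*, also called *Rex1*, fell from 943, 932 and 899 CPM to 875, 693 and 612 CPM (log2 fold change -0.35, adjusted p = 0.0321 with the block and 0.337 without it in edgeR). Neither gene's groups overlapped. *Klf4* was higher and *Nr5a2* lower with the block, at log2 fold changes of 0.41 and -0.26 (adjusted p = 0.0251 and 0.0488 in edgeR).

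*Dppa3* is a classical marker of primordial germ cells, and germ cell genes were counted for that reason. Of 12 tested, 0 were higher and 2 lower with the block (against 10.7% and 9.13% of all genes), and the median log2 fold change was -0.23. *Ifitm1*, an interferon-induced transmembrane gene expressed in early germ cells, fell from 123, 110 and 129 CPM in wild-type 1, 2 and 3 to 69.9, 69.9 and 102 CPM in S138A A, B and C (log2 fold change -0.58, adjusted p = 0.0114 with the block and 0.234 without it in edgeR). Its groups did not overlap. The other was *Tfap2c*, a germ cell factor named after its values were seen, with a log2 fold change of -0.29 and a log2 difference of 0.79 in the libraries that stood apart. *Nanos3*, *Ifitm3* and *Dazl* had log2 fold changes of -0.78, -0.23 and 0.21 and were not called (adjusted p = 0.174, 0.208 and 0.301 with the block in edgeR). The median of the list in wild-type 3 and S138A C over the other 4 libraries was 0.44, the same direction as *Dppa3*. Without these 2 libraries, 1 of the 12 germ cell genes was higher and 5 were lower, against 15.3% of all genes higher and 14.3% lower.

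Transcripts that are associated with ESCs in the same way as the Dppa genes were counted next. Of 10 tested, 0 were higher and 1 lower with the block, a share near the background (10.7% and 9.13% of all genes), and the median log2 fold change was -0.13. The gene called was *Gdf3*, a TGF-beta ligand, at 122, 118 and 86.2 CPM in wild-type and 101, 105 and 67.4 CPM in S138A libraries (log2 fold change -0.25, adjusted p = 0.0391 with the block and 0.633 without it in edgeR). *Sox15*, *Fbxo15* and *Fgf4* had log2 fold changes of -0.44, -0.23 and -0.25 and were not called (adjusted p = 0.0849, 0.141 and 0.0917 with the block in edgeR), although the groups of *Sox15* did not overlap.

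DPPA3 and the KH domain proteins are products of the oocyte, and of 12 genes of that kind 6 were expressed highly enough to be tested. *Khdc3*, a KH domain gene of the subcortical maternal complex, fell from 61.4, 66.0 and 116 CPM in wild-type 1, 2 and 3 to 32.0, 36.9 and 63.3 CPM in S138A A, B and C (log2 fold change -0.88, adjusted p = 0.00275 with the block and 0.316 without it in edgeR). As for *Dppa3*, the highest library of each genotype was wild-type 3 or S138A C, with a log2 difference of 0.87, and its groups overlapped because S138A C lay between wild-type 1 and 2. With the block 0 of the 6 were higher and 1, *Khdc3*, was lower (against 10.7% and 9.13% of all genes). The median log2 fold change of the 6 was 0.24. *Ooep*, *Tle6* and *Gdf9* had log2 fold changes of 0.17, 0.46 and -0.57 (adjusted p = 0.108, 0.0543 and 0.304 with the block in edgeR). The groups did not overlap for 1 of the 6, *Tle6*, with S138A higher (11.3% of all genes did so). It stood at 4.93 to 5.47 CPM in wild-type and 6.26 to 8.61 CPM in S138A libraries.

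*Dppa3* lies in a gene cluster with *Nanog*, *Gdf3*, *Apobec1* and *Slc2a3*, so its neighbours were examined for the same fall. On the left, *Gm26168*, a short noncoding RNA 2.8 kb away, held 0 counts in 5 libraries and *Gdf3* had the difference given above. *Apobec1*, a cytidine deaminase gene 24.0 kb away, stood at 10.5, 10.4 and 16.7 CPM in wild-type 1, 2 and 3 and at 5.77, 5.87 and 13.5 CPM in S138A A, B and C (log2 fold change -0.59, adjusted p = 0.0214 with the block and 0.543 without it in edgeR). As for *Dppa3*, wild-type 3 and S138A C were the highest of their genotypes (log2 difference 0.94), but its groups overlapped. On the right, the pseudogene *Gm10420*, 65.7 kb away, had a log2 fold change of -0.14 and was not called (adjusted p = 0.569 with the block in edgeR). *Nanog*, named after its values were seen, stood at 616, 614 and 938 CPM in wild-type and at 603, 602 and 775 CPM in S138A libraries and was not called either (log2 fold change -0.13, adjusted p = 0.306 with the block in edgeR).

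*Slc2a3*, a glucose transporter gene 97.5 kb to the right, went the other way. It rose from 1065, 1095 and 1379 CPM to 1484, 1503 and 2036 CPM (log2 fold change 0.51, adjusted p = 0.00618 with the block and 0.268 without it in edgeR), and its groups did not overlap. *Foxj2*, a forkhead factor gene beyond it, had a log2 fold change of 0.29 and was not called (adjusted p = 0.097 with the block in edgeR). The tested neighbours of *Dppa3*, 7 of 10, thus ran from -0.59 to 0.51, and the gene chosen for its fall was at -2.85.

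**Figure D5:**
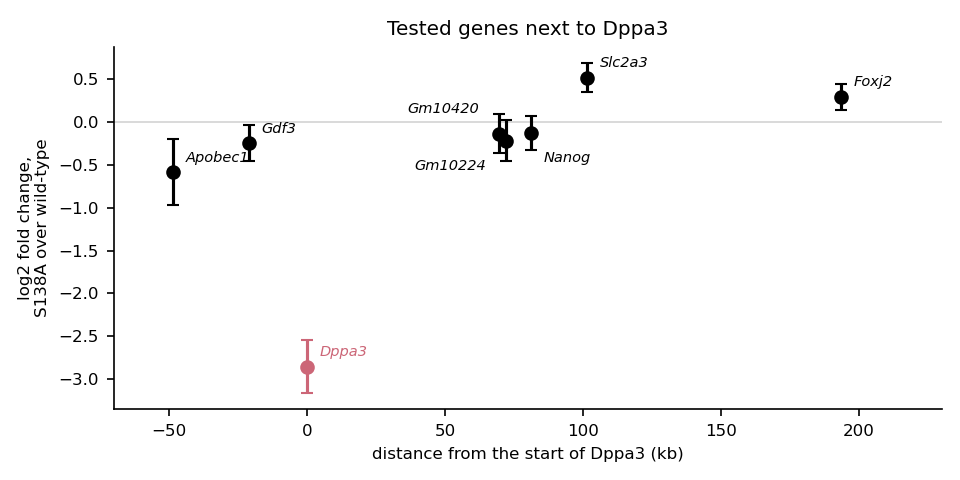
Log2 fold change (S138A over wild-type, vertical axis, ± SE) of the tested neighbours of *Dppa3* against their distance from its start in kb along the chromosome. *Dppa3* (red) is at -2.85, and the neighbours lie between -0.59 (*Apobec1*) and 0.51 (*Slc2a3*).

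Around the other members, *Morc1*, a germline ATPase gene 111.5 kb from *Dppa2*, fell with the block (log2 fold change -0.38, adjusted p = 0.0465 in edgeR and 0.494 without the block). The genes directly beside *Dppa4* and *Dppa2* on their outer sides, *Gm7204* and *n-R5s36*, held too few reads to be tested. Beside *Dppa5a*, *Gsta2* was also too low, and *Ooep*, 7.9 kb away, is given above. Over all neighbours of the 4 genes, 11 of 30 were tested, of which 1 was higher and 3 lower with the block (against 10.7% and 9.13% of all genes).

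Several genes had profiles across the 6 libraries that were closest to that of *Dppa3*. They were *Sgk1*, a serum- and glucocorticoid-regulated kinase (r = 0.999), *Zfp442* (r = 0.997), *Nbr1*, an autophagy receptor (r = 0.997), *Cep68*, a centrosomal protein (r = 0.995), and *Inip*, a subunit of a single-stranded DNA-binding complex (r = 0.994). The measure was Pearson's r of log2 CPM over 6 libraries that share 2 genotypes, and 408 of 12229 genes exceeded 0.9, so the value mainly describes the split by genotype. Their fitted log2 fold changes were -0.54, -0.46, -0.26, -0.59 and -0.34, each smaller than that of *Dppa3*. *Sgk1*, for example, stood at 381, 380 and 413 CPM in wild-type 1, 2 and 3 and at 266, 253 and 289 CPM in S138A A, B and C. The other Dppa genes had r of -0.161 (*Dppa2*), 0.157 (*Dppa4*) and -0.275 (*Dppa5a*) with *Dppa3*.

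Markers of other cell types were summed beside these results. The 7 markers of fibroblasts and feeder cells summed to 42.7 to 71.9 CPM in wild-type and 78.7 to 115 CPM in S138A libraries. Of the 5 tested, 3 (*Col1a1*, *Col3a1* and *Thy1*) were higher with the block and without overlap, against 10.7% and 11.3% of all genes. *Col1a2* (10.9 and 9.08 CPM on average in wild-type and S138A cells) and *Pdgfrb* (4.60 and 6.06 CPM) were not called, with log2 fold changes of -0.26 and 0.40, and *Dcn* and *Lum* were at or below 0.158 CPM in every library. The 6 primitive endoderm markers summed to 16.3 to 17.0 CPM in wild-type libraries, and to 15.7, 16.0 and 26.1 CPM in S138A A, B and C. *Dab2* alone held 17.5 CPM in S138A C. Of the 6, 0 were called with the block. The groups did not overlap for 1, *Gata6*, with S138A lower (10.9% of all genes did so). The 4 primed epiblast markers summed to 26.1 to 49.0 and 15.7 to 35.4 CPM, with *Pou3f1* at 0 counts in all libraries and *Otx2* lower with the block. Their part in the fall of *Dppa3* was not tested.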

How the data were processed

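PolyA RNA of E14 ESCs was sequenced with a stranded kit, in 3 libraries for each of the 2 genotypes. Per the submitters' processing notes, the authors used CASAVA 1.8.4 and TopHat2 2.0.11 with mm9 (NCBIM37) and deposited counts per gene, not normalised, made by featureCounts. Its version, strand setting and treatment of multiply mapped reads are not given in the sources used here. A read assigned to a copy in place of its gene would lower the count of that gene. The table held 37620 genes, 0 spike-in rows (ERCC RNA had been added) and 0 columns left unused, and 32897 genes (87.4%) were matched to symbols. The S138A columns name no sample and were taken as a group.

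Counts were analysed in R 4.3.3 with edgeR 4.0.16 (TMM factors, filterByExpr at a minimum count of 10 and total of 15, quasi-likelihood test, Benjamini-Hochberg adjustment over 16023 genes, threshold 0.05, two-sided), and with DESeq2 1.42.0 and limma 3.58.1 (voom) as alternatives. Each standard error is the absolute log2 difference over the root of its F statistic. Lengths and positions came from GENCODE M21 and were read with Python 3.11.15. Depth was 33227593 to 37169770 counts per library, and Poisson intervals hold for counting error alone. On counts simulated for the S138A against wild-type comparison (15838 genes), edgeR recovered 8 of 49 genes changed 1.5-fold, 23 of 50 changed 2-fold, 39 of 48 changed 4-fold and 50 of 50 changed 8-fold, with 5 false calls, and DESeq2 recovered 8, 26, 40 and 49 with 28 false calls. The simulated libraries were drawn independently, without the difference that wild-type 3 and S138A C share, so these rates need not hold for the real libraries. On the real counts the same edgeR test called 0 of 16023 genes. The fits with the block, with a term and without 2 libraries were not simulated.

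The members, the gene lists and the alternatives were chosen with earlier results of these data known. The rule for named genes took the 4 members, up to 4 members of each list by smallest p, the 5 genes with the highest Pearson r with *Dppa3* among genes of at least 2 CPM, and the genes next to a member on either side. The last digit of the S138A column names was taken as a replicate number. Deviations of same-numbered libraries from their group means correlated at 0.53, 0.493 and 0.753, and the number was used as a block. Crossing numbers 1 and 2 gave 0.515 and 0.526, so only wild-type 3 with S138A C is distinguished by the data. With 3 libraries centred on their mean, that pair alone makes the others correlate in either order. The pairing rests on column names, not on a stated design. Alternatives were upper-quartile and RLE factors, no low-count filter, a filter of 1 CPM, the other tools, each library left out, the replicate block, a term setting wild-type 3 and S138A C against the rest, both of these left out, and the longest coding transcript as gene length.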

Additional observations from a re-analysis of the deposited data

How the results depend on the processing

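The fall of *Dppa3* ran from -3.14 to -2.60 on the log2 scale over 15 alternatives, from without S138A C to without wild-type 3. *Dppa5a* kept its positive sign, from 0.0079 (without S138A C) to 0.20, and was not called in any alternative. *Dppa4* kept its negative sign, from -0.30 to -0.03, and crossed the threshold only with the term for wild-type 3 and S138A C, at -0.17 (adjusted p = 0.04999 in edgeR), while its adjusted p under the other 14 alternatives missed it. The value of *Dppa2* lay close to 0 and changed sign with upper-quartile factors (0.02) and without wild-type 3 and S138A C (0.06). With libraries left out in turn it ran from -0.25 to 0.30 (0.16 without wild-type 1 and 0.08 without wild-type 2), and it was called in no alternative. The replicate block changed no call of *Dppa2*, *Dppa4* or *Dppa5a*, with a log2 fold change of -0.05 for *Dppa2*, but it changed the count of genes called from 0 to 3180 and that of the list members from 0 to 27 of 76.

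The count of genes called was 4 without a low-count filter, 797 with DESeq2, 4418 with the term for wild-type 3 and S138A C, and 4756 without these libraries. It was 0 with RLE factors, upper-quartile factors, the filter of 1 CPM and limma-voom. Leaving out libraries in turn gave 0 to 79 genes, with 79 without S138A C. The count over list members was 8 with DESeq2, 30 with the term, 36 without both libraries and 0 to 6 with libraries left out in turn, where 6 came without S138A C. Levels per kilobase moved by less than the spread between replicates with the longest coding transcript as length. With 3 libraries a group, the interval of each difference says more than a missed threshold. The cause of the differences between fits was not tested.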

Other observations

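Other genes for modifiers of chromatin and DNA methylation in the lists, not described above, were compared in the same way and are given as values. *Dnmt3l*, a cofactor of the de novo methyltransferases, stood at 401, 406 and 183 CPM in wild-type 1, 2 and 3 and at 389, 402 and 155 CPM in S138A A, B and C, so that it was low in the same libraries as *Dppa2*, with a log2 difference of -1.25 for wild-type 3 and S138A C over the other 4. *Tet2* (-0.90) and *Trim28* (-0.69) shared that direction, as did the pluripotency genes *Nr0b1* (-1.71) and *Sall4* (-0.80), whereas *Kit* (1.11) and *Prdm1* (1.28) of the germ cell list went the other way, with *Dppa3*. These genes were picked after their values were seen, and no test was made on the split of the libraries.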
